A study of Mus musculus with 4 samples.

Results

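The genes described here are effectors and target genes of the canonical Wnt pathway, in which the protein beta-catenin carries a Wnt signal into the nucleus. They were chosen by gene symbol: the DNA-binding TCF/LEF factors Lef1, Tcf7, Tcf7l1 and Tcf7l2, the feedback inhibitors Axin2, Nkd1 and Nkd2, and the genes of receptor turnover Rnf43, Znrf3 and Lgr5. All 10 symbols were found among the 25239 genes of the count table. RNA was sequenced from hindlimb bud cells of FVB mouse embryos at embryonic day 11.5, with 2 libraries from anterior cells sorted as mCherry+ and 2 from central cells sorted as mCherry-. Both groups came from embryos labelled wild-type that carried the reporter H11 hsp68-hZRS(404G>A)-mCherry, in which a human ZRS, the limb enhancer of Shh, with the base change 404G>A is joined to an hsp68 promoter and mCherry. Domain and mCherry state differ together, so they cannot be told apart. How many embryos a library pools is not given in the sources used here. The p-values rest on the spread between the libraries of a group, estimated in part from all genes, and this spread may be technical.

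In the absence of Wnt, a destruction complex built on Axin and Apc marks beta-catenin for breakdown, and TCF/LEF factors with Tle proteins hold target genes down. Wnt binding to Frizzled and Lrp receptors stops this breakdown, and beta-catenin joins the TCF/LEF factors to raise transcription, including that of several inhibitors of the pathway itself. In the limb bud, Wnts from the ectoderm act on the mesenchyme beneath, where they are known to favour growth over cartilage formation, and Lef1 and Tcf7 are known to share functions there.

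Library totals ranged from 30080925 to 33257383 counts. Hindlimb identity was present in all 4 libraries, with Pitx1 between 429.9 and 483 CPM and Tbx4 between 224.5 and 267 (the count as a share of the library total, scaled between libraries by TMM). Of 14610 genes tested, 22.9% were called by edgeR's quasi-likelihood test at an adjusted p-value under 0.05, with 10.7% of tested genes higher and 12.3% lower in anterior cells. Markers of other cell types moved with the populations. Surface ectoderm markers were called lower in anterior cells in 9 of 11, and none higher. They summed to 10.3 and 10.7 CPM in the anterior libraries against 55.7 and 185 in the central ones. Sp6, at 0 in both anterior libraries, was also low in the central ones, at 0.032 and 0.433 CPM, and was not tested. Muscle precursor markers were called lower in 7 of 7, with sums of 4.17 and 2.35 against 143 and 142 CPM, and Pax7 and Myog at 0 in both anterior libraries. Cartilage markers were called lower in 4 of 8, with sums of 301 to 412 against 1190 to 1503 CPM. Tendon and connective tissue markers were called lower in 6 of 8, with sums of 518 to 590 against 1066 to 1075 CPM. Of these sums, Tcf4 made up 387 and 338 CPM in anterior cells and 480 and 499 in central cells. Tcf4 was among the 6 called, and it is a gene of chromosome 18 other than Tcf7l2. Endothelial markers were called lower in 6 of 9 (9.86 and 12.3 against 35.7 and 42.4 CPM), and those of Schwann precursors and neural crest in 2 of 6 (9.51 to 13.9 against 24.0 to 28.8 CPM). Erythroid markers were called higher in 8 of 9, with sums of 3294 and 8400 against 5.97 and 9.48 CPM, and myeloid markers in 3 of 6 (13.5 to 17.9 against 7.32 to 7.34 CPM). Of the limb mesenchyme markers, 5 of 8 were called higher and none lower, with sums of 3286 to 3303 against 1808 to 1974 CPM. The 5 were Prrx2, Twist1, Lhx2, Lhx9 and Msx1. Tbx4, Pitx1 and Prrx1 were not called, with Prrx1 at 717 and 676 against 681 and 641 CPM. In RNA from sorted populations, fewer cells of a type and less RNA per cell cannot be told apart, and the part of these cells in the differences below was not tested. With the markers of ectoderm, muscle, blood, endothelium and macrophages removed before scaling and fitting, the same numbers of the genes described here were called, 5 higher and 3 lower. That removal left the counts of these genes unchanged, so it could not show what RNA of those cells added to them.

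Of the 10 genes, 5 were called higher in anterior cells, 3 were called lower and 2 were not called. Over all genes tested, 22.9% were called. Rnf43, called lower, passed the filter on low counts only through the central libraries and so had to be lower. Of the other 9 genes, 5 were called higher and 2 lower. The same removal over all genes tested, in either direction, left 14043, of which 21.5% were called. It took out genes with both libraries of a group and neither of the other at the filter's cutoff. Genes with either library of the other group at the cutoff were kept. The values of the anterior libraries lay wholly above or wholly below those of the central libraries for all 10, as they did for 63.5% of tested genes. The median log2 fold change of the 10 genes was 0.33 and the median of its absolute value 0.75, against -0.01 and 0.22 over all genes tested, and 0.53 and 0.64 without Rnf43. All 3 feedback inhibitors rose, Lef1 and Tcf7 rose while Tcf7l2 fell, and Lgr5 fell while Znrf3 was not called.

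**Figure D1:**
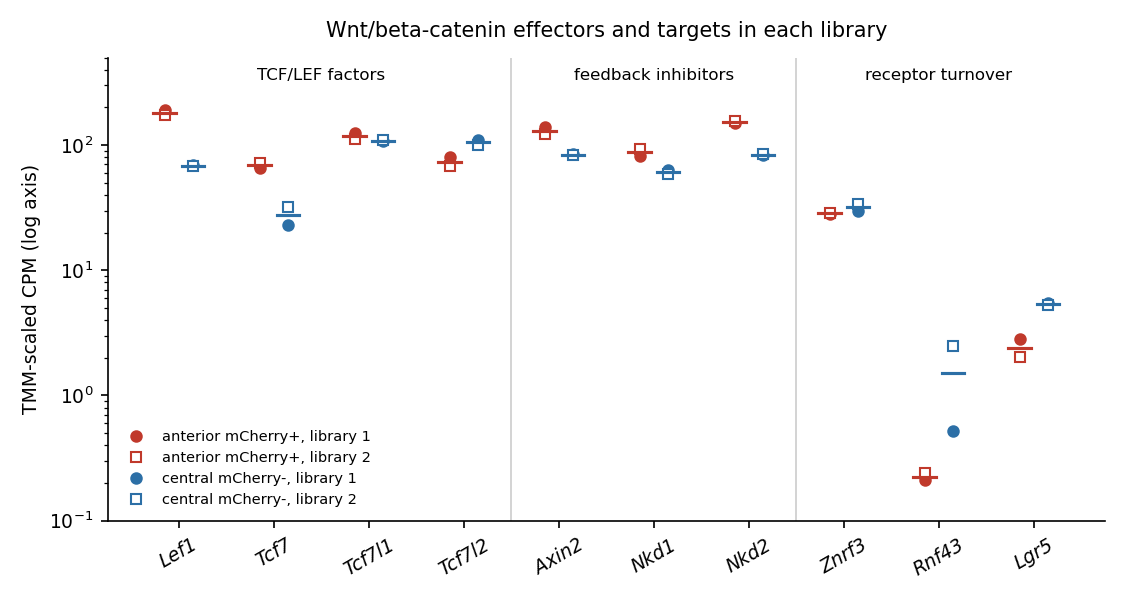
TMM-scaled CPM on a log axis for the 10 genes, grouped by role, with a symbol for each library (filled for library 1, open for library 2) and a line at the mean of each group of 2. Lef1 lies near 182 CPM in anterior and 68.7 in central cells, whereas Rnf43 and Lgr5 lie under 6 CPM in every library.

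The TCF/LEF factors bind the same DNA core but differ in what they do at it: Lef1 and Tcf7 are known mainly as activators with beta-catenin, Tcf7l1 mainly as a repressor, and Tcf7l2 as either. Lef1 (chromosome 3, 131110471 to 131224356, plus strand, GRCm38) had the largest rise of the 10 genes. Its libraries measured 191 and 173 CPM in the anterior group against 69.1 and 68.2 in the central group. Both anterior values were far above both central values, and replicates were close in each group. The means of 182 ± 12.9 and 68.7 ± 0.65 CPM (SD, n = 2) correspond to a log2 fold change of 1.40 (SE 0.07), a 2.65-fold rise, with edgeR adjusted p = 6.26e-06.

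Tcf7 (chromosome 11, 52252371 to 52283014, minus strand), which encodes the factor TCF1, rose by nearly as much. Its anterior values were 65.8 and 72.2 CPM and its central values 22.8 and 32.3. The groups did not overlap, but the central replicates differed by 0.50 on the log2 scale, more than the 0.15 that was the median gap over all genes tested. The log2 fold change was 1.32 (SE 0.15), a 2.50-fold rise, with edgeR adjusted p = 0.000386. The higher of the central values came from replicate 2, the library with the higher sum of ectoderm markers, 185 CPM against 55.7, and the part of those cells in the result was not tested.

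Tcf7l2 (chromosome 19, 55741820 to 55933654, plus strand) went the other way. It measured 79.9 and 67.6 CPM in anterior cells and 110 and 100.2 in central cells, so that each anterior value was below each central one. Its log2 fold change was -0.51 (SE 0.10), which is 1.43-fold lower in anterior cells, with edgeR adjusted p = 0.00582. Tcf7l1 (chromosome 6, 72626378 to 72789254, minus strand) measured 125 and 111 CPM against 107 and 109. The lower anterior value lay just above the higher central one, and the gene was not called (log2 fold change 0.12, 95% interval -0.05 to 0.30, edgeR adjusted p = 0.301). The upper end of this interval lies below the lower ends for Lef1 and Tcf7, which are 1.24 and 0.99, but the difference between these genes was not itself tested.

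**Figure D2:**
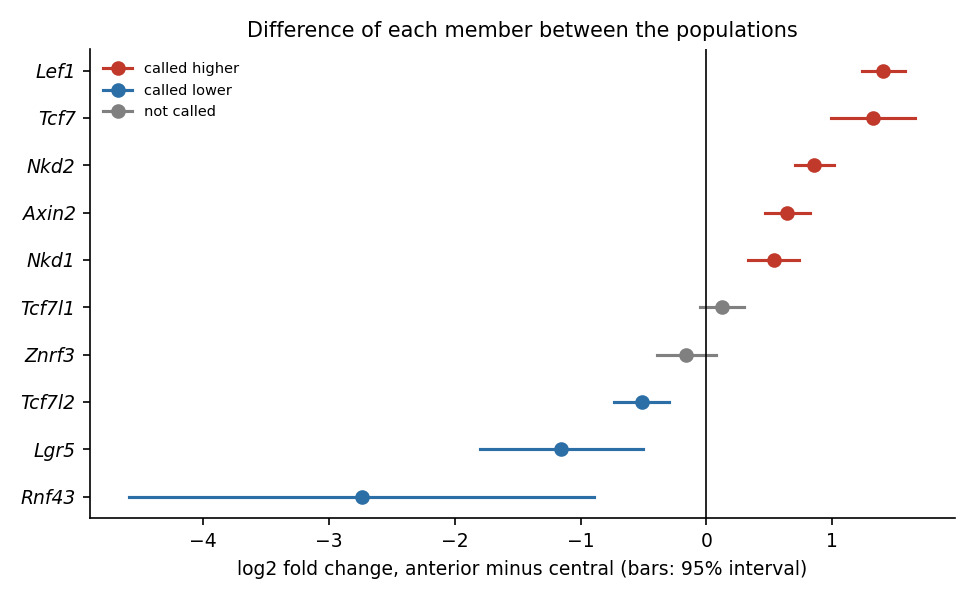
Log2 fold change of each of the 10 genes, anterior minus central, from edgeR, with bars for the 95% interval and colours for the call at an adjusted p-value of 0.05. The estimates run from -2.74 for Rnf43, with an interval from -4.58 to -0.89, to 1.40 for Lef1, and the intervals of Tcf7l1 and Znrf3 cross 0.

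The bases before the start sites of Lef1, Tcf7l2 and Axin2 are shown because they are the TCF/LEF gene that rose most, the TCF/LEF gene that fell and the classic feedback target. Each is the 250 bases before the most upstream RefSeq start site (GRCm38.p6), 5′ to 3′ on the gene's plus strand, with the TCF/LEF core CTTTG or its reverse complement CAAAG in capitals. Lef1 is chr3:131110047-131110296, Tcf7l2 is chr19:55741560-55741809 and Axin2 is chr11:108920099-108920348.
Lef1: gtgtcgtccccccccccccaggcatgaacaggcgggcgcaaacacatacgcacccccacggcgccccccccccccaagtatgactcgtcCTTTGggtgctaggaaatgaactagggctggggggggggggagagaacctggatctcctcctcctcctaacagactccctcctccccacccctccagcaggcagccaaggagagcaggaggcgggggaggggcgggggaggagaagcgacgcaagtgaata
Tcf7l2: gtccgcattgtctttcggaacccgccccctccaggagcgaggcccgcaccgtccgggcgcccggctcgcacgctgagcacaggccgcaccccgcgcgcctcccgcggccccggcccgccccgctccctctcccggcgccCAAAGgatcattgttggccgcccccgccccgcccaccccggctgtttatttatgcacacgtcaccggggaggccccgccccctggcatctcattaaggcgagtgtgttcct
Axin2: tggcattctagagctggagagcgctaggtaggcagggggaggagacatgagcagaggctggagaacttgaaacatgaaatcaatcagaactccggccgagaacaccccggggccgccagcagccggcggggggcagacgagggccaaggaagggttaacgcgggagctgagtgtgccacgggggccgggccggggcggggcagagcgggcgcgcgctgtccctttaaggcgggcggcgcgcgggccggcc
The core begins 161 bases before the start site in Lef1 and 111 bases before it in Tcf7l2, and the Axin2 window holds no match. RefSeq windows were found for 8 of the 10 genes, all but Lgr5 and Znrf3, with 14 windows in all because several genes have more than 1 start site. The core was in 7 of these 14 windows (50%), all of them of Lef1, Tcf7l1 or Tcf7l2, and in 48.6% of 32851 windows of the same length over all genes. Windows of a gene can overlap, and those at the most upstream start sites of Lef1 share a match. By gene, the core was in a window of 3 of the 8 genes, against 14097 of 27025 genes with windows. The longer form CTTTGAT, which contains the core, was searched on both strands too and was in none of the 14 windows, against 3.21% (1053) of all windows. A match is a description of the letters, and no match says only that these letters are not in this window.

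The make-up of the TCF/LEF family was compared after division by gene length, since CPM rises with length. With merged exon lengths from GENCODE M21, Lef1 made up 24.2% ± 0.80 (SD, n = 2) of the summed level of the 4 factors in anterior cells against 13.5% ± 0.60 (SD, n = 2) in central cells. Tcf7 made up 28.6% and 33.1% in anterior cells against 15.4% and 20.7% in central cells. Tcf7l2 made up 10.4% and 9.3% in anterior cells against 22.3% and 19.3% in central cells, and Tcf7l1 made up 36.2% and 34.0% against 48.4% and 46.9%. The shares of Lef1 and Tcf7 were thus larger in both anterior libraries than in either central one, and those of Tcf7l1 and Tcf7l2 were smaller. The level of Tcf7l1 itself was not lower, at 31.7 and 28.2 CPM per kilobase in anterior cells against 27.3 and 27.8 in central cells. The sum of the 4 levels was also larger, at 87.7 and 83.1 CPM per kilobase against 56.4 and 59.3, which is 1.47-fold. The ratio of Lef1 to Tcf7l2 per kilobase was 2.38 and 2.55 for the anterior libraries against 0.63 and 0.68 for central, so the order of these genes was opposite in the populations. These shares were not tested. They depend on the length used: with the longest transcript of each gene, Lef1 made up 36.5% in anterior and 20.0% in central cells and was the largest share in anterior cells, whereas Tcf7l1 was with merged exons.

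**Figure D3:**
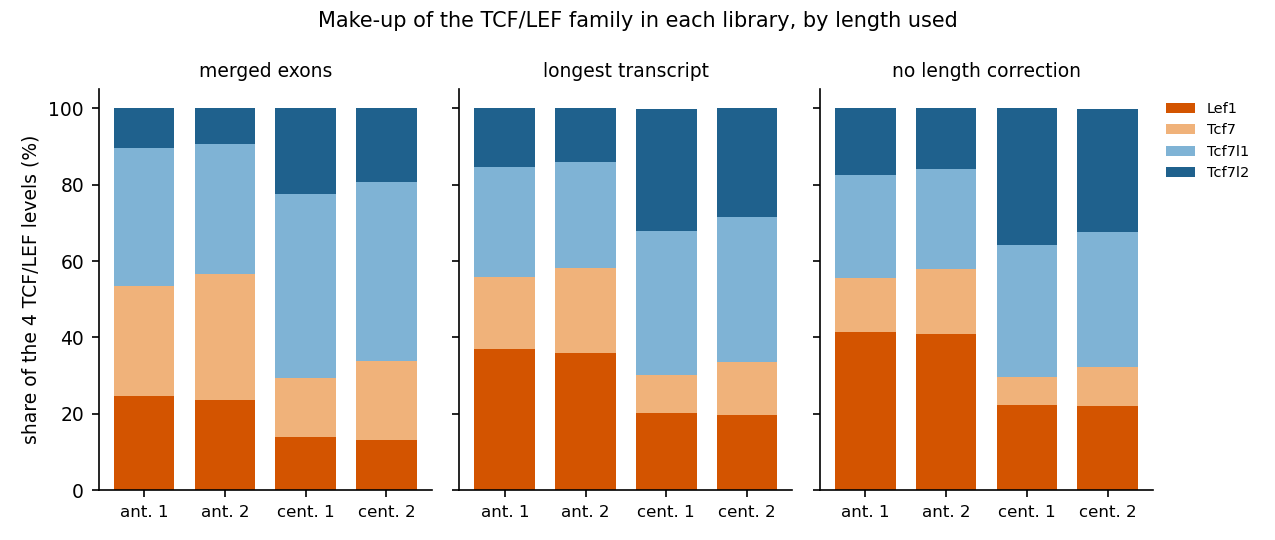
Stacked bars from 0 to 100% for the share of Lef1, Tcf7, Tcf7l1 and Tcf7l2 in their summed level in each library, with a panel for each length used (merged exons, longest transcript, none). In all 3 panels the Lef1 and Tcf7 bars are taller in the anterior libraries, for example 24.8% and 23.6% for Lef1 against 13.9% and 13.1% with merged exons.

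The feedback inhibitors act inside the cell that receives the signal. Axin2 (chromosome 11, 108920349 to 108950783, plus strand) encodes a scaffold of the destruction complex and is a widely used readout of beta-catenin activity. It measured 139 and 123 CPM in anterior cells and 84.5 and 83.0 in central cells. Every anterior value was above every central value, and the log2 fold change was 0.64 (SE 0.08), a 1.56-fold rise, with edgeR adjusted p = 0.000674. Axin1, the related scaffold that is not known as a Wnt target, measured 107 and 99.9 CPM against 93.3 and 90.0 and did not pass the test (edgeR adjusted p = 0.121).

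Nkd1 and Nkd2 encode the Naked cuticle proteins, which bind Dishevelled and damp the signal. Nkd2 (chromosome 13, 73818534 to 73847631, minus strand) rose most of the feedback genes, from 83.2 and 84.9 CPM in central cells to 149 and 156 in anterior cells. Its replicates were close in both groups, and the log2 fold change was 0.86 (SE 0.07), a 1.81-fold rise, with edgeR adjusted p = 4.71e-05. Nkd1 (chromosome 8, 88521354 to 88594884, plus strand) measured 82.3 and 93.3 CPM against 62.8 and 58.5. Its groups did not overlap either, and it rose by a log2 fold change of 0.53 (SE 0.09), with edgeR adjusted p = 0.00316. Per kilobase of merged exons, the level of Nkd2 was above that of Nkd1 in every library, by a ratio of 1.71 and 1.58 on the anterior side against 1.25 and 1.37 on the central side. Lef1, Tcf7 and Nkd2 were also called by the edgeR test against a 1.5-fold change, which 7.08% of tested genes passed. Axin2 and Nkd1, with folds of 1.56 and 1.45, were not called by that test.

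Receptor turnover is set by the membrane ubiquitin ligases Rnf43 and Znrf3, which remove Frizzled receptors from the cell surface, and by R-spondins, which with Lgr receptors such as Lgr5 block these ligases. Znrf3 (chromosome 11, 5276324 to 5444847, minus strand) was well measured in both populations, with 840 to 1095 counts in each library. It measured 28.3 and 28.6 CPM in anterior cells and 29.9 and 33.8 in central cells. The anterior values were slightly lower, and the gene was not called (log2 fold change -0.16, 95% interval -0.40 to 0.07, edgeR adjusted p = 0.304). Per kilobase of merged exons, the level of Znrf3 was 112 and 99.7 times that of Rnf43 in anterior replicates 1 and 2, against 47.8 and 11.2 times in central replicates 1 and 2.

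Lgr5 (chromosome 10, 115450311 to 115587780, minus strand), a Wnt target and stem cell marker in several epithelia, was lowly expressed, with 24.8% of tested genes at a lower mean CPM. Its anterior libraries held 94 and 59 counts against 169 and 171 for central, or 2.82 and 2.01 against 5.49 and 5.28 CPM. The central libraries were close and both above the anterior ones, and the log2 fold change was -1.15 (SE 0.28), which is 2.22-fold lower, with edgeR adjusted p = 0.0199. The call was lost without anterior replicate 2, where the log2 fold change was -0.93 and adjusted p = 0.101, with all settings but the 1.5-fold test spanning 0.00505 to 0.101.

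Rnf43 (chromosome 11, 87662722 to 87735539, plus strand) had the fewest counts, with 7 and 7 in anterior cells against 16 and 81 in central cells, or 0.21 and 0.24 against 0.52 and 2.50 CPM. It passed the filter on low counts only through the central libraries. Central replicate 2 stood far above the other 3 libraries, and the central replicates differed by 2.27 on the log2 scale. The log2 fold change of -2.74 (SE 0.81) had edgeR adjusted p = 0.0412. Without central replicate 2 it was -1.20 with an adjusted p-value of 0.513, and without central replicate 1 it was -3.46. The call was also lost without anterior replicate 1 (edgeR adjusted p = 0.0894), without anterior replicate 2 (0.0827) and with limma-voom (0.133), with all settings but the 1.5-fold test spanning 0.00168 to 0.513. Surface ectoderm markers differed between the central libraries in the same direction as Rnf43, with sums of 55.7 and 185 CPM, Trp63 at 4.35 and 23.3 and Krt5 at 9.77 and 41.6, and the part of ectoderm in the Rnf43 value was not tested.

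Levels were ranked within each population in CPM per kilobase of merged exons. In central cells Tcf7l1 led at 27.6 ± 0.38, followed by Nkd2 at 17.4 ± 0.25, Axin2 at 15.2 ± 0.19 and Nkd1 at 13.3 ± 0.68 (SD, n = 2). Tcf7l2 at 12.0 and Tcf7 at 10.5 had overlapping libraries, and Lef1 at 7.81 was below both. In anterior cells Nkd2 at 31.6 ± 1.06 and Tcf7l1 at 29.99 ± 2.48 overlapped, as did Tcf7 at 26.3 with Axin2 at 23.7 and Lef1 at 20.7 with Nkd1 at 19.3. Tcf7l2 at 8.41 was then well below all of these. Znrf3, Lgr5 and Rnf43 took the last places in both populations, at 3.61, 0.24 and 0.034 in anterior and 4.04, 0.53 and 0.23 in central cells. Every other pair of neighbours in these orders was separated beyond the values of its libraries. The places of the TCF/LEF factors depend on the length used. With the longest transcript, Lef1 was above Tcf7 in both populations, at 20.0% of the summed TCF/LEF level against 11.9% in central cells and at 36.5% against 20.6% in anterior cells.

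The 3 genes whose pattern over the 4 libraries lay nearest to that of Lef1, by Euclidean distance of centred log2 CPM, were Wnt5a, Pdzd2 and Bmp4, at distances of 0.030, 0.064 and 0.096. Wnt5a, a Wnt ligand of the distal limb mesenchyme that acts mainly without beta-catenin, measured 717 and 643 CPM in anterior cells and 264 and 253 in central cells. Bmp4, a signal of the bone morphogenetic protein family, measured 155 and 137 against 56.2 and 51.1 CPM. Rnf43 had Epcam, Podxl and Jag2 as its nearest genes, at distances of 0.58, 0.66 and 0.83. Epcam is an epithelial adhesion molecule and a marker on the surface ectoderm list. It was at 2.698 and 2.659 CPM in anterior cells and at 8.64 and 23.7 in central cells, the values on which it was chosen. These distances describe 4 libraries that fall into 2 groups, so many genes share such patterns.

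**Figure D4:**
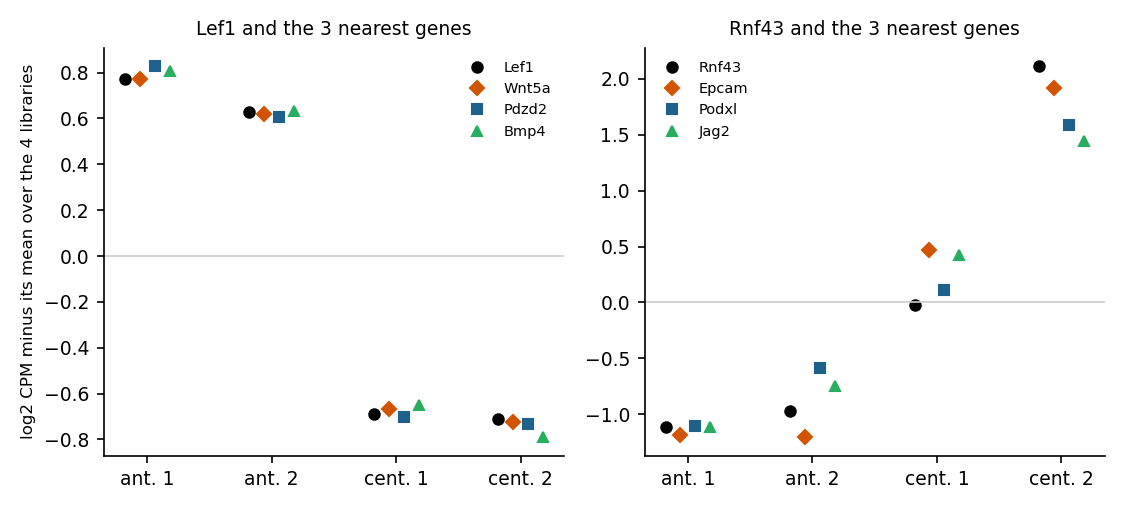
Log2 CPM minus its mean over the 4 libraries for Lef1 (left) and Rnf43 (right) with the 3 nearest genes of each, a symbol for each gene in each library. The symbols for Lef1, Wnt5a, Pdzd2 and Bmp4 nearly coincide in every library, whereas those of Rnf43, Epcam, Podxl and Jag2 are spread more and are highest in central replicate 2.

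The other genes of the pathway were taken from 7 lists by role, with 106 genes in the count table, of which 96 were tested. Of these, 21 were called higher and 40 lower in anterior cells, against 10.7% and 12.3% of all genes tested. Among the 40, 12 passed the filter only through the central libraries. Ctnnb1, which encodes beta-catenin, measured 1345 and 1359 CPM in anterior cells and 1471 and 1524 in central cells and did not pass the test (log2 fold change -0.15, edgeR adjusted p = 0.118). Of the 15 Dishevelled and destruction complex genes, 2 were called higher, 2 lower and 11 not called, with a median log2 fold change of 0.06. The largest changes there were in Amer2, which encodes an Apc-binding membrane protein and rose by 1.69 on the log2 scale, and in Apc2, a relative of Apc, with -1.32.

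Of 14 tested beta-catenin partners and corepressors, 4 were called higher and 2 lower, with a median log2 fold change of -0.03. The Tle corepressors, which bind TCF/LEF factors, did not move as a block. Tle4 was higher, at 113 and 90.2 CPM against 68.4 and 73.4 (log2 fold change 0.52, edgeR adjusted p = 0.00958), a call lost without anterior replicate 1 (adjusted p = 0.0501, with all settings but the 1.5-fold test spanning 0.00016 to 0.0501). Tle2 was lower, at 10.6 and 10.1 against 28.9 and 23.0 CPM (log2 fold change -1.33, edgeR adjusted p = 0.000391), and Tle5, a short form that lacks repressor parts, was lower by a log2 fold change of -0.41 (edgeR adjusted p = 0.0106).

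**Figure D5:**
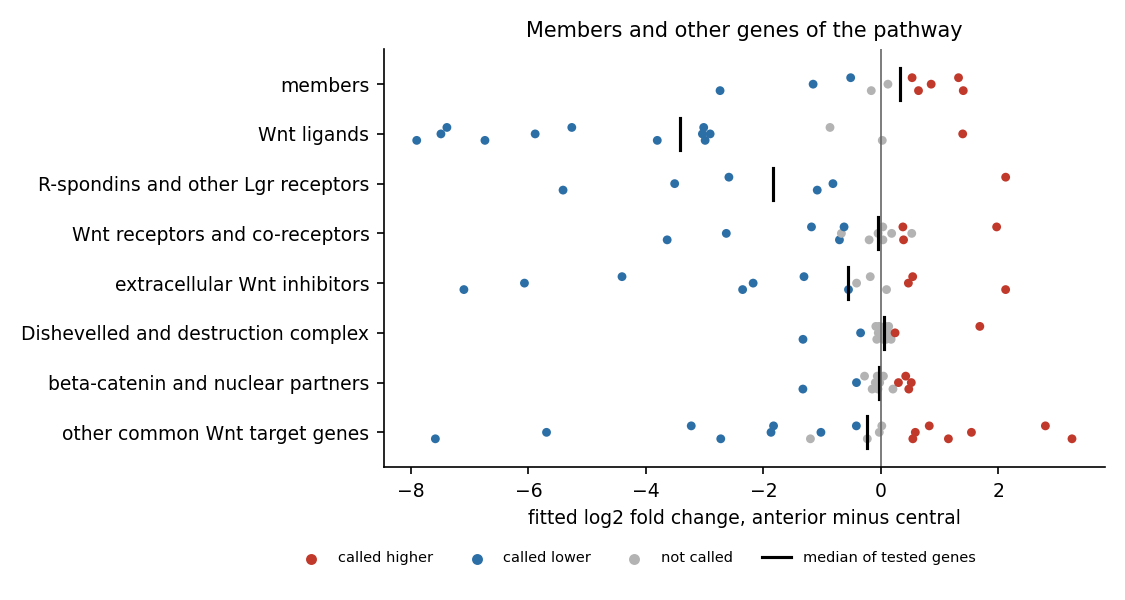
Fitted log2 fold change, anterior minus central, of every tested gene among the 10 described (members) and in the 7 pathway lists, with 1 point per gene coloured by its call and a black line at the median of each list. The median is 0.33 for the 10 genes and -3.42 for the 14 Wnt ligands, 7 of which passed the filter only through the central libraries, and destruction complex genes gather near 0.

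Of 14 tested Wnt ligands, 11 were called lower in anterior cells and 1, Wnt5a, higher. Of the 11, 7 (Wnt2, Wnt6, Wnt7a, Wnt7b, Wnt9b, Wnt10a and Wnt16) passed the filter on low counts only through the central libraries and so had to be lower. Of the other 7 ligands, 4 were called lower, 1 higher and 2 were not called, with a median log2 fold change of -2.91. Among those 4, Wnt3 and Wnt4 had anterior replicate 2 under the cutoff of the filter and differed widely between the central libraries. Wnt3 was at 0.33 and 0.10 against 0.455 and 5.81 CPM, and Wnt4 at 0.69 and 0.14 against 1.43 and 5.44. The median of -2.91 includes both, so it is not free of the filter. The median fitted value over all 14 was -3.42, or -3.03 with the 5 genes of at most 3 counts in both anterior libraries set at their bound. Wnt6, an ectodermal ligand, had 0 and 3 counts against 158 and 639. It was at least 129-fold lower in anterior cells with each anterior library set at a floor of 3 counts, which anterior replicate 2 reached. The bound is 53.4-fold without central replicate 2 and 205-fold without central replicate 1. Ectoderm markers were lower in the same libraries, as given above, and their part in the ligand counts was not tested. Of the R-spondins and other Lgr receptors, 5 of 6 were called lower, of which Rspo1 and Lgr6 passed the filter only through the central libraries. Those that did not were Rspo2 at 1.68 and 1.5 against 15.2 and 21.2 CPM, Rspo3 at 18.4 and 18.5 against 41.3 and 37.0, and Lgr4 at 44.0 and 35.9 against 74.9 and 65.8. Lgr4, a relative of Lgr5, thus fell as well, with a log2 fold change of -0.81 (edgeR adjusted p = 0.00136). The exception was Rspo4, at 11.5 and 16.9 against 3.57 and 2.94 CPM (log2 fold change 2.13, edgeR adjusted p = 0.000446).

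Of the 15 receptors and co-receptors, 3 were called higher and 5 lower (median log2 fold change -0.05). Fzd10 had the largest rise, at 142 and 141 against 35.0 and 36.9 CPM. Ror1, a receptor for Wnt5a, was at 4.56 and 2.18 against 45.7 and 39.3 CPM (log2 fold change -3.64, edgeR adjusted p = 2.76e-05). Of 13 tested extracellular inhibitors, 3 were called higher and 7 lower, with a median log2 fold change of -0.55. Sost and Kremen2, both called lower, passed the filter only through the central libraries. Of the other 11 inhibitors 3 were called higher and 5 lower, with a median of -0.41. Among those 5, Sostdc1 had anterior replicate 2 under the cutoff of the filter, at 0.84 and 0.24 against 11.6 and 11.9 CPM. Dkk1, an Lrp-binding inhibitor and Wnt target, was at 17.2 and 19.3 against 3.77 and 4.57 CPM (log2 fold change 2.13, edgeR adjusted p = 7.68e-05). Apcdd1, a membrane inhibitor and Wnt target, was at 80.0 and 62.8 against 53.3 and 44.8 CPM (log2 fold change 0.54, edgeR adjusted p = 0.0168), a call lost without anterior replicate 1 (0.0803, with all settings but the 1.5-fold test spanning 0.000555 to 0.0803). Notum, a Wnt-inactivating enzyme and target, had overlapping groups, at 9.95 and 10.4 against 7.60 and 11.4 CPM, and did not pass the test (edgeR adjusted p = 0.794). Sost had 0 and 2 counts against 44 and 273, at least 51.3-fold lower in anterior cells, a bound that is 14.9-fold without central replicate 2 and 87.8-fold without central replicate 1.

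Other genes often named as Wnt targets were split in direction. Of 19 tested, 7 were called higher and 8 lower, with a median log2 fold change of -0.23. Without 1 gene that passed the filter only through the central libraries, 7 were called in each direction and the median was -0.13. Msx1, a homeobox gene of undifferentiated limb mesenchyme, had the largest rise, at 238 and 253 against 29.2 and 22.3 CPM. Sp5, a target that responds directly in many tissues, was at 2.22 and 1.98 against 3.604 and 4.912 CPM (log2 fold change -1.02, edgeR adjusted p = 0.0447). Its call was lost without anterior replicate 1 (edgeR adjusted p = 0.0868), anterior replicate 2 (0.156) or central replicate 2 (0.191), with limma-voom (0.0517) and with the DESeq2 Wald test (0.0711), with all settings but the 1.5-fold test spanning 0.0212 to 0.191. Ccnd1, which encodes cyclin D1, was at 269 and 254 against 290 and 324 CPM and did not pass the test (log2 fold change -0.23, edgeR adjusted p = 0.0520). It was called, as lower, in 8 other settings, among them without central replicate 1 (adjusted p = 0.00159, with all settings but the 1.5-fold test spanning 0.00159 to 0.3504).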

How the data were processed

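The values are read counts per gene symbol as deposited by the authors, whole numbers that were not normalized. The submitters' processing notes name STAR 2.7.9a, HTSeq, DESeq2 (given as 3.16) and the mm10 build, without roles or order. The annotation and the use of strand are not given in the sources used here. Antisense genes overlap 13.7% of the merged exons of Lef1, 3.80% of Axin2 and 4.56% of Tcf7l1, and reads from both strands may have been counted together there. Of the counts from 1 to 10, 72.8% to 75.6% were even, so both mates of a pair may have been counted. Each column was matched to a sample title by domain name and number, and 0 per-sample columns were left over. Floors cover counting error only, and if both mates were counted, a floor stands for fewer fragments and the fold bounds are weaker.

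Groups and replicate numbers came from the titles. The counts were fitted over the whole table with edgeR 4.0.16 in R 4.3.3: filterByExpr, TMM, the quasi-likelihood F test of anterior against central on 2 residual degrees of freedom, and Benjamini-Hochberg adjustment over 14610 genes, with a threshold of 0.05. The spread of each gene was estimated in part from all genes, so the tests and intervals used more than these 2 degrees of freedom. The SE is the absolute log2 fold change divided by the square root of F, and intervals are 95%. CPM are TMM-scaled. Gene positions and lengths are from GENCODE M21 (GRCm38) and sequences from RefSeq. A floor of 3 counts was 0.090 to 0.100 CPM.

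The genes, the 7 pathway lists and the 9 marker lists were chosen with earlier results of these data known. The named pathway genes are the called genes with the largest rise and the largest fall in each list at a mean of at least 1 CPM, plus fixed genes; 1 gene that this rule names is not reported here. The 3 nearest genes were sought among those with a mean of at least 5 CPM. The alternatives were other scalings, DESeq2 1.42.0, limma-voom (limma 3.58.1), other count filters, the replicate block, halved counts, removal of other cell types' markers, a stricter threshold (0.01), an edgeR test of changes beyond 1.5-fold, and leaving out each library. Lengths for the TCF/LEF shares were varied after the data were seen. The fit was also run on simulated counts with known changes, all larger than those of Axin2, Nkd1, Nkd2 and Tcf7l2. That run does not show how well smaller changes are recovered. With 2 libraries a group, no sample can be tested for standing apart.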

Additional observations from a re-analysis of the deposited data

How the results depend on the processing

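The direction of each of the 10 genes was kept in every setting that gave a value, and 8 of the 10 kept their call in every setting other than the 1.5-fold test; the exceptions were Lgr5 and Rnf43. The count of 5 called higher was the same under each scaling, test, filter, block and left-out library and at a threshold of 0.01. Against a 1.5-fold change, 3 of the 10 genes were called, 3 higher and 0 lower, and 38 pathway genes in place of 61. At a threshold of 0.01 the genes called lower numbered 1, as they did without anterior replicate 2. Over the fits that each left out a library, which keep 1 residual degree of freedom and assume that a lone library varies like the other group, 6 to 8 of the genes were called, 5 to 5 higher and 1 to 3 lower, and 50 to 65 pathway genes. Rnf43 was not tested with halved counts or at a mean count of at least 50, where the filter removed it. Notum, which was not called, had log2 fold changes of -0.16 to 0.42 in those fits, with the lower value without central replicate 1, in place of 0.10. The Lef1 share of the TCF/LEF sum in anterior cells was 36.5% with the longest transcript and 41.1% with no length correction, in place of 24.2%, since the lengths of the genes change by different factors. Genes called over the whole table numbered 3351, against 1035 by the 1.5-fold test, 1690 at a threshold of 0.01 and 2009 without anterior replicate 2. The share of these calls that was higher in anterior cells was 46.5%, 40.3% with library size alone, 39.1% with upper-quartile factors, 26.9% by the 1.5-fold test and 51.0% without central replicate 2. Replicate numbers are shared between the groups, but the labels do not say what they share, and the replicate differences of the groups correlated at 0.046 across genes. With the replicate block 8 of the genes were called, 5 higher and 3 lower, and 63 pathway genes. Depth limits Rnf43, with 7 to 81 counts in a library, and Lgr5, with 59 to 171.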
